A study of Homo sapiens with 16 samples.

Results

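SLC12A3 and 6 related genes of the SLC12 family of cation-chloride cotransporters (SLC12A2, SLC12A4, SLC12A5, SLC12A7, SLC12A8 and SLC12A9) were followed across 16 RNA-seq libraries. The 7 genes were taken by symbol from a table of 63187 genes, of which 19530, all 7 members included, passed the filter on low counts. The set was chosen by an earlier reading of the same data in which SLC12A3 stood out for its rise in the transfected cells, so its values against untransfected cells are given as a description with no test. The libraries came from SK-N-BE(2), a human neuroblastoma line with amplified MYCN. The 4 groups held 4 libraries each. WT cells carried no construct according to the labels, FL cells were transfected with full-length HIF-2α, and NCTAD and cIDR cells with forms the study design writes as ΔN-CTAD and Δc-IDR. HIF-2α, the product of EPAS1, is an oxygen-regulated transcription factor, and in all groups the cells grew at 21% oxygen in 10% serum. The vector, the time after transfection and any empty-vector treatment of WT are not given in the sources used here, so transfection and HIF-2α cannot be told apart in a comparison with WT. Replicate numbers 1 to 4 are labelled as batches 1 to 4, and each batch held 1 library of each group.

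Cation-chloride cotransporters move chloride together with sodium, potassium or both across the cell membrane, and so set cell volume and the chloride level inside the cell. SLC12A3 encodes NCC, the thiazide-sensitive sodium-chloride cotransporter of the distal convoluted tubule of the kidney. SLC12A2 encodes the widely expressed sodium-potassium-chloride importer, and its balance with the potassium-chloride exporter of SLC12A5 sets how neurons respond to GABA. SLC12A4 and SLC12A7 encode potassium-chloride exporters that act in volume regulation, while SLC12A8 and SLC12A9 are distant members of the family whose transport is less settled. Importers are switched on, and exporters off, by WNK kinases acting through the kinases of STK39 and OXSR1.

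HIF factors bind DNA at a short core, ACGTG or GCGTG, so the sequences before the starts of 4 members are shown. These are SLC12A3, with the widest difference between groups, and the 3 members for which batch 2 lay outside the other batches in all 4 groups: SLC12A8 and SLC12A7, which were higher there, and SLC12A2, which was lower. Sequences are from RefSeq (GRCh38.p14), 250 bases before the start, 5′ to 3′ in the direction of the gene, with any core in capitals. They are chr16:56864957-56865206 on the plus strand for SLC12A3, chr3:125211400-125211649 on the minus strand for SLC12A8, chr5:1112064-1112313 on the minus strand for SLC12A7, and chr5:128083516-128083765 on the plus strand for SLC12A2. For SLC12A7 and SLC12A8 the start given in the RefSeq promoter table lies inside the full span of the gene given below, so the annotated gene extends upstream of it, and that stretch was not searched.
SLC12A3: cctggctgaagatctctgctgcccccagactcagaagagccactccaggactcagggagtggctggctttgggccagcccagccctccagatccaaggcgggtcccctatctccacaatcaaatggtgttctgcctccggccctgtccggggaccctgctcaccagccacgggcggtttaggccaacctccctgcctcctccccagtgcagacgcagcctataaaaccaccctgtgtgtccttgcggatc
SLC12A8: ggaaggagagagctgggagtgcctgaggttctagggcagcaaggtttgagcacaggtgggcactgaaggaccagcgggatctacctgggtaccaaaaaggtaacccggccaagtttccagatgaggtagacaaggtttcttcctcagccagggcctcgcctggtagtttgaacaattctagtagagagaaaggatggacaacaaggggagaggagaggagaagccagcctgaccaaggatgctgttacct
SLC12A7: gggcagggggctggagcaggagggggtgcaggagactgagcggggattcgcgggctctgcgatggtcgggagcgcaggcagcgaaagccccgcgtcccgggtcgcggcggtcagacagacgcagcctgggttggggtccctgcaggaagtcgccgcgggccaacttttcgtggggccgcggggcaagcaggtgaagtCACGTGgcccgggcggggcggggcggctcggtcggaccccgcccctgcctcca
SLC12A2: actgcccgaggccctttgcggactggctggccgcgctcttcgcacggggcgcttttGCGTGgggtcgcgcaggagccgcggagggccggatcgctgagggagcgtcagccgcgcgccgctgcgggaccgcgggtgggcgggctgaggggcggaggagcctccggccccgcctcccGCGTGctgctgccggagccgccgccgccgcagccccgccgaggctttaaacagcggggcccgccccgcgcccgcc
The search covered both strands of the 300 bases from 250 before to 50 after each start. SLC12A3, SLC12A5 and SLC12A8 held no match. SLC12A7 held the core ACGTG on both strands in 1 shared stretch, beginning 53 bases before its start. SLC12A2 held 2 matches to GCGTG. For SLC12A9 the upstream start had none and the downstream start 4, and of 4 starts of SLC12A4, 2 had 1 match each. Of 35116 promoter windows, 48.4% held either core, 21.4% ACGTG and 36.5% GCGTG. A match is a description of the sequence, and its absence says nothing of other sites.

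The labels were checked with EPAS1. It made up 0.00132 to 0.00296% of counts in WT and 0.137 to 0.578% in the transfected libraries, where reads of the gene and of the construct are counted together. Library totals ran from 38.6 to 56.1 M counts. Markers of sympathetic neuroblasts, 9 genes, summed to 6839 to 8907 CPM, counts per 1 M counts. Most of this sum was CHGA (1930 to 3640 CPM) and MYCN (2594 to 3411 CPM), while TH was low, at 0.856 to 10.2 CPM. Markers of the distal convoluted tubule, the cells known for SLC12A3, were at or near 0: 6 of 8 never reached 10 counts in any library and PVALB had 0 counts in all. Their summed level, nearly all of it TRPM6, was 4.69 to 6.56 CPM in WT. It was 5.39 to 6.11 CPM in FL libraries, 5.61 to 6.82 in NCTAD libraries and 5.08 to 6.18 in cIDR libraries, so the groups overlapped. Schwann and mesenchymal markers summed to 91.2 to 125 CPM over the 16 libraries, with overlap between all groups, and most of this was TWIST1 (84.3 to 119 CPM). Markers of blood, endothelial and epithelial cells summed to 0.777 to 2.55 CPM in WT and to 1.40 to 4.02 in the transfected libraries, and 4 of these 8 never reached 10 counts. Their part in the results was not tested.

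SLC12A3 (chr16:56865207-56915850, plus strand) was low in WT cells and higher in every transfected library. The 4 WT libraries, in the order of batches 1 to 4, held 23, 63, 51 and 59 counts, or 0.480, 1.17, 1.23 and 1.30 CPM. The FL libraries held 1.80, 7.40, 3.48 and 3.07 CPM in the same order, from 74 to 378 counts. No FL library reached down to the highest WT library, but FL in batch 2 stood well above the other 3. In NCTAD the gene was at 2.09, 4.16, 4.81 and 4.45 CPM, and in cIDR at 1.71, 4.40, 2.86 and 2.87 CPM. Neither group overlapped with WT, and in each of the 4 groups batch 1 was lowest. The group mean was 1.04 ± 0.380 CPM for WT against 3.94 ± 2.42 for FL, 3.88 ± 1.22 for NCTAD and 2.96 ± 1.11 for cIDR (SD, n = 4).

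**Figure D1:**
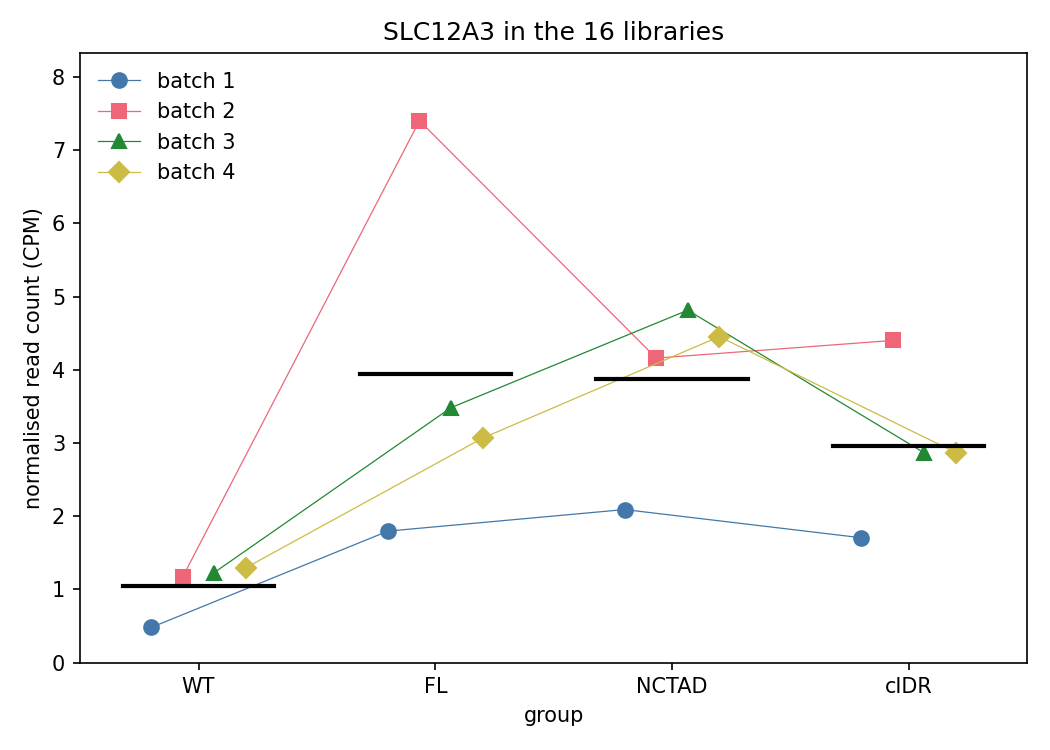
SLC12A3 in CPM (vertical axis) in the 4 groups (horizontal axis), 1 point a library, with marker and colour for the batch, thin lines joining libraries of 1 batch and black bars for group means. All 12 transfected libraries lie above the 4 WT libraries, and FL in batch 2, at 7.40 CPM, is the highest.

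Inside batches the rise of SLC12A3 was present in 4 of 4 pairs for all 3 constructs. For FL the ratio to the WT library of the same batch was 3.74, 6.31, 2.83 and 2.37 in batches 1 to 4. For NCTAD the ratios were 4.35, 3.55, 3.91 and 3.44. For cIDR they were 3.55, 3.75, 2.33 and 2.21. On the log2 scale the within-batch difference averaged 1.78 ± 0.61 for FL, 1.88 ± 0.13 for NCTAD and 1.48 ± 0.38 for cIDR (SD, n = 4), so the batches agreed most closely for NCTAD. The fitted log2 fold changes of edgeR, given as description, were 1.92 ± 0.43 (SE) for FL, 1.89 ± 0.43 for NCTAD and 1.51 ± 0.43 for cIDR. With the replicate block, a batch term in the model, they were 1.85 ± 0.22 for FL, 1.92 ± 0.22 for NCTAD and 1.50 ± 0.22 for cIDR. Leaving out the FL library of batch 2 lowered the FL value to 1.42. The 3 comparisons share the WT libraries and are therefore not independent. EPAS1 took 0.162, 0.207, 0.358 and 0.324% of counts in the FL libraries of batches 1 to 4, where SLC12A3 was highest in batch 2. In NCTAD its share was 0.204, 0.137, 0.417 and 0.357%, and both genes were highest in batch 3. In cIDR it was 0.391, 0.225, 0.574 and 0.578%, with SLC12A3 highest in batch 2, where EPAS1 was lowest.

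Between constructs, which is a comparison the choice of SLC12A3 did not use directly although it shares the same libraries, no difference passed the test. NCTAD against FL gave a log2 fold change of -0.02 ± 0.41 (SE; 95% interval -0.89 to 0.84; edgeR adjusted p = 1). NCTAD was higher than FL in 3 of 4 batches and lower in batch 2, and the value was 0.48 without the FL library of batch 2. cIDR against FL gave -0.41 ± 0.41 (95% interval -1.28 to 0.46; edgeR adjusted p = 1), with cIDR lower in 4 of 4 batches. This value moved with single libraries: it was 0.088 without the FL library of batch 2, -0.645 without that of batch 1, -0.66 and -0.22 without the cIDR libraries of batches 2 and 1, and -0.15 without batch 2 altogether. cIDR against NCTAD gave -0.39 ± 0.41 (95% interval -1.26 to 0.48; edgeR adjusted p = 1), with cIDR lower in 3 of 4 batches, and ran from -0.64 to -0.20 when 1 library was left out, lowest and highest without the cIDR libraries of batches 2 and 1. With the replicate block the last of these was -0.42 ± 0.20 (95% interval -0.85 to 0.02; edgeR unadjusted p = 0.0586, adjusted p = 1). Over all genes tested, these 3 comparisons called 0%, 0% and 0% without the block, and 0%, 0.0307% and 0.00512% with it, for NCTAD against FL, cIDR against FL and cIDR against NCTAD in that order. At an unadjusted p under 0.05, 173, 177 and 119 genes lay in the fit without the block.

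The importer SLC12A2 (chr5:128083766-128189677) was not called with any construct. Its WT libraries held 27.6, 20.1, 30.1 and 32.3 CPM in batches 1 to 4, and its FL libraries 26.7, 20.1, 28.8 and 33.9 CPM. Its NCTAD libraries lay between 19.0 and 31.7 CPM and its cIDR libraries between 17.1 and 29.9, so all groups overlapped. Against WT the log2 fold change of FL was -0.01 ± 0.21, of NCTAD -0.04 ± 0.21 and of cIDR -0.12 ± 0.21 (SE), and with the block the 95% interval for FL narrowed to -0.17 to 0.15. KDELC1P1, a processed pseudogene, lies inside the gene on the same strand.

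SLC12A5 (chr20:46021686-46060150), the neuronal chloride exporter, had 42 to 82 counts in a library. In WT it was at 1.32, 1.45, 1.69 and 1.65 CPM in batches 1 to 4. In FL it was at 1.33, 1.19, 1.01 and 0.996 CPM. FL was lower in 3 of 4 batches, with a ratio of 1.02 in batch 1, and the groups overlapped. NCTAD libraries lay between 1.25 and 1.57 CPM and cIDR libraries between 1.14 and 1.47. Inside batches cIDR was below WT in 4 of 4 and NCTAD in 2 of 4, and NCTAD was above FL in 4 of 4. The log2 fold change in FL was -0.43 ± 0.18 (SE; 95% interval -0.80 to -0.06), with an edgeR unadjusted p of 0.0270 and an adjusted p of 1 (0.920 with the block), so it did not pass. For NCTAD the value was -0.14 ± 0.17 and for cIDR -0.22 ± 0.17. SLC12A5-AS1 on the other strand shares 384 bases with the gene.

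The exporters SLC12A4 and SLC12A7 were not called with any construct. SLC12A4 (chr16:67943474-67968694) was at 9.53 ± 1.04 CPM (SD, n = 4) in WT and at 8.20 to 12.2 over the transfected libraries, with log2 fold changes of 0.08 ± 0.13 (FL), 0.04 ± 0.13 (NCTAD) and 0.08 ± 0.13 (cIDR; SE). On the TPM scale FL stood further from WT, at 6.27 ± 0.335 against 4.58 ± 1.16 TPM (SD, n = 4), and limma on log2(TPM + 1) gave 0.40 and on log2(TPM + 0.1) 0.47 (limma adjusted p = 1 in both). In edgeR the FL value ran from 0.024 to 0.16 when 1 library was left out, without the FL library of batch 3 and the WT library of batch 4. It shares 658 bases on the same strand with LCAT, so that some reads may be split between the genes. SLC12A7 (chr5:1050384-1155899) ranged from 25.7 to 38.9 CPM in WT and from 32.2 to 41.5 with FL, 28.1 to 39.0 with NCTAD and 30.8 to 42.5 with cIDR. Its log2 fold change in FL was 0.14 ± 0.14 (SE; edgeR adjusted p = 1), higher in 3 of 4 batches. It was 0.045 and 0.24 without the WT libraries of batches 1 and 2, 0.058 without the FL library of batch 2 and 0.066 without batch 1 altogether. With the block it was 0.15 ± 0.06 (edgeR unadjusted p = 0.0356, adjusted p = 0.920).

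SLC12A8 (chr3:125082644-125212748) held 2.96, 6.35, 2.87 and 2.59 CPM in the WT libraries of batches 1 to 4. The FL libraries held 3.88, 7.68, 2.86 and 2.89 CPM, the NCTAD libraries 4.16, 6.60, 3.09 and 3.25, and the cIDR libraries 3.92, 7.22, 3.03 and 3.05. Each group split into a high library, batch 2, and 3 lower ones, and the groups overlapped. Inside batches it was above WT in 3 of 4 pairs in FL and in 4 of 4 in NCTAD and cIDR, by 0.20 ± 0.17, 0.24 ± 0.20 and 0.22 ± 0.13 on the log2 scale (SD, n = 4). The fit without the block gave 0.23 ± 0.40 (FL), 0.21 ± 0.40 (NCTAD) and 0.22 ± 0.40 (cIDR; SE), and none was called. These values turned to -0.205, -0.081 and -0.15 without the batch 2 library of the construct, and came to 0.62, 0.61 and 0.62 without that of WT. With the block they were 0.21 ± 0.10, 0.24 ± 0.10 and 0.22 ± 0.10 (SE), with edgeR adjusted p of 0.920, 0.780 and 0.918, and again none was called. SLC12A9 (chr7:100826869-100867012), known as an interacting partner of other cotransporters, ranged from 31.3 to 40.1 CPM in WT and from 25.0 to 43.3 in FL, and the difference between FL and WT ran from -0.68 in batch 4 to 0.43 in batch 1 on the log2 scale. Its fitted log2 fold change was 0.08 ± 0.15 (FL), 0.06 ± 0.15 (NCTAD) and 0.05 ± 0.15 (cIDR; SE), and it was not called. The FL value changed sign with single libraries: it was 0.20 without the FL library of batch 4 and 0.16 without the WT library of that batch, but -0.034 and -0.014 without the FL libraries of batches 1 and 3. SLC12A9-AS1 on the other strand had at most 8 counts.

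**Figure D2:**
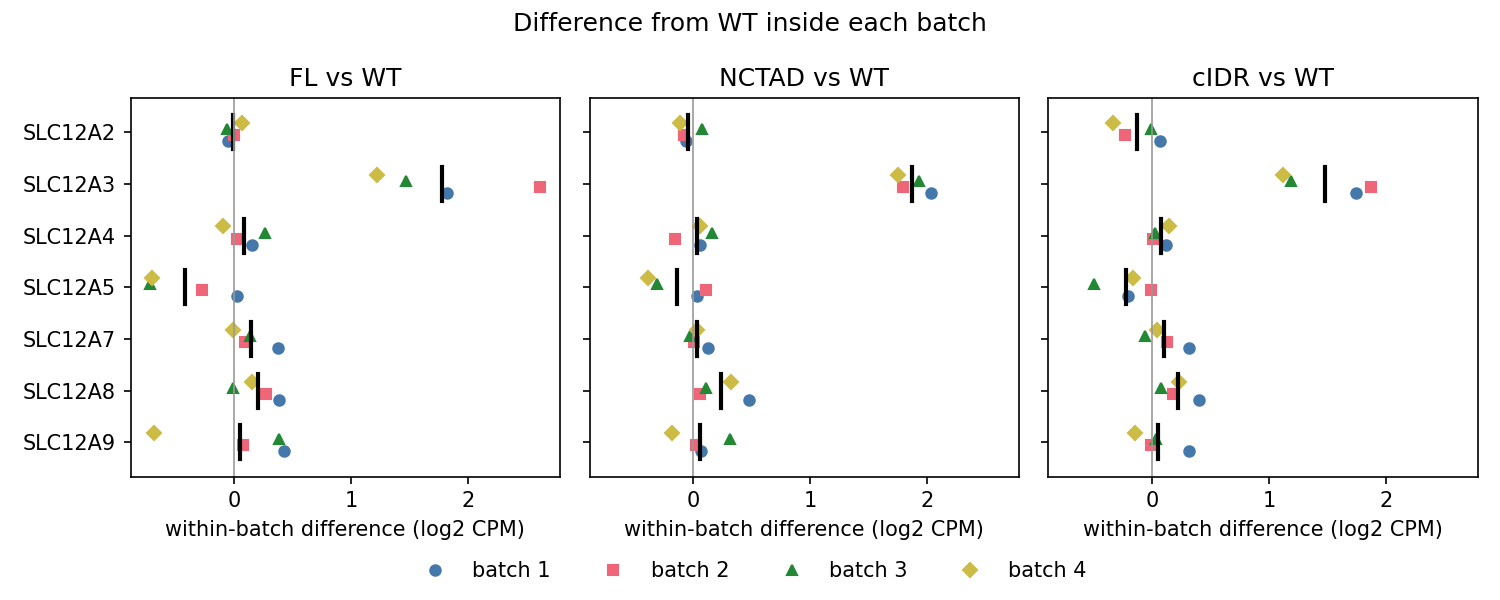
Within-batch difference from WT in log2 CPM (horizontal axis) for each member (vertical axis) and each construct (panels), with 1 point a batch and black bars for the mean of 4 batches. Every SLC12A3 point lies above 1, while those of the other 6 members lie around 0, between -0.72 and 0.48.

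Of the 6 members other than SLC12A3, 0 were called in FL, NCTAD or cIDR against WT by edgeR, with or without the block. Without the block, the share of all genes called was 0.0102%, 0.0256% and 0.0102% for FL, NCTAD and cIDR, and with the block 0.102%, 0.456% and 0.486%. Few genes were called at all, so a count of 0 among 6 is near the background. At an unadjusted p under 0.05 the 6 members gave 1, 0 and 0 genes without the block, where 1.14%, 1.42% and 1.37% of all genes lay under it, and 2, 1 and 1 with it, where 5.11%, 5.96% and 5.45% did. The median log2 fold change of the 6 was 0.08 for FL, 0.03 for NCTAD and 0.06 for cIDR, beside 0.01, 0.02 and 0.01 over all genes tested. DESeq2 and limma on TPM also called 0 of the 6.

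**Figure D3:**
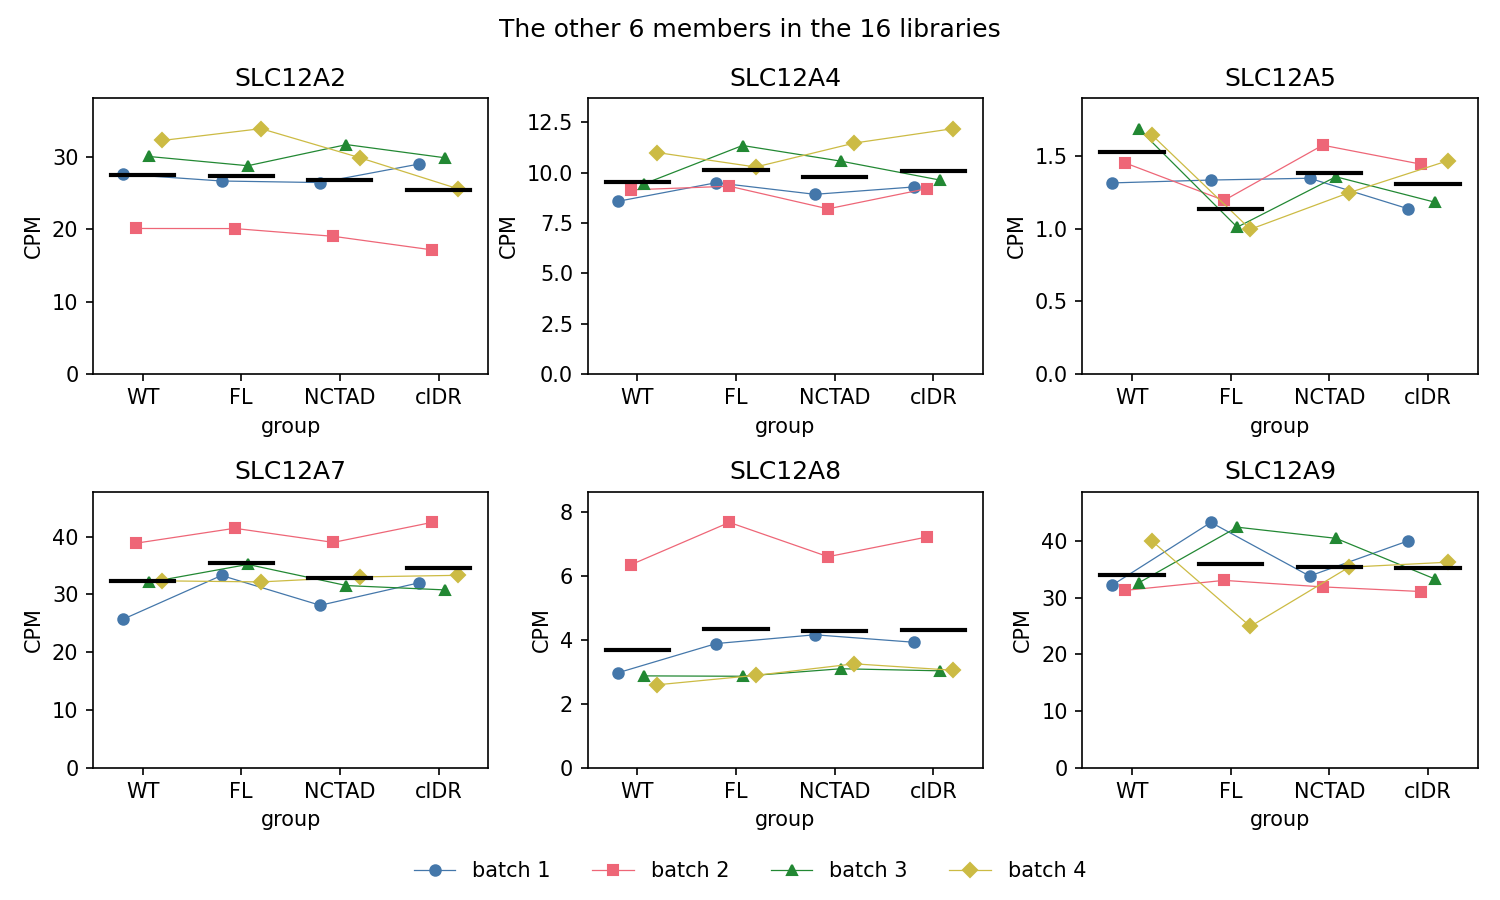
CPM (vertical axes, each from 0) of the other 6 members in the 4 groups, with 1 point a library, marker and colour for the batch, thin lines joining libraries of 1 batch and black bars for group means. Batch 2 lies apart in all 4 groups for SLC12A2 (lower) and for SLC12A7 and SLC12A8 (higher). Group means of these 3 differ by less than the SD over the batches of a group, while for SLC12A5 they run from 1.13 CPM in FL to 1.53 in WT.

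Levels per length were compared in TPM, transcripts per 1 M. SLC12A9 was highest at 16.1 ± 1.94 TPM (SD, 16 libraries), followed by SLC12A7 at 10.4 ± 1.91. SLC12A2 at 5.98 ± 1.29, SLC12A5 at 5.03 ± 0.951 and SLC12A4 at 4.98 ± 1.05 overlapped widely and cannot be ordered. SLC12A8 followed at 2.58 ± 1.36, and SLC12A3 was lowest at 1.05 ± 0.593. This order is over all batches: in batch 2 SLC12A8 was at 4.77 ± 0.668 TPM (SD, n = 4), among SLC12A5 at 4.65, SLC12A4 at 4.50 and SLC12A2 at 4.43. The place of SLC12A5 rests on short transcripts. The ratio of its counts to its TPM corresponded to a mean transcript of 385 bases, with 294 to 498 over the libraries, although its longest annotated transcript in GENCODE 29 has 6166. The same ratio gave 2430 to 6562 bases for the other members. SLC12A5 thus had the TPM of SLC12A4 with 42 to 82 counts a library, against 343 to 584 for SLC12A4. SLC12A1, the sodium-potassium-chloride importer of the kidney and no member of the set, was at 0.0933 ± 0.0646 TPM.

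**Figure D4:**
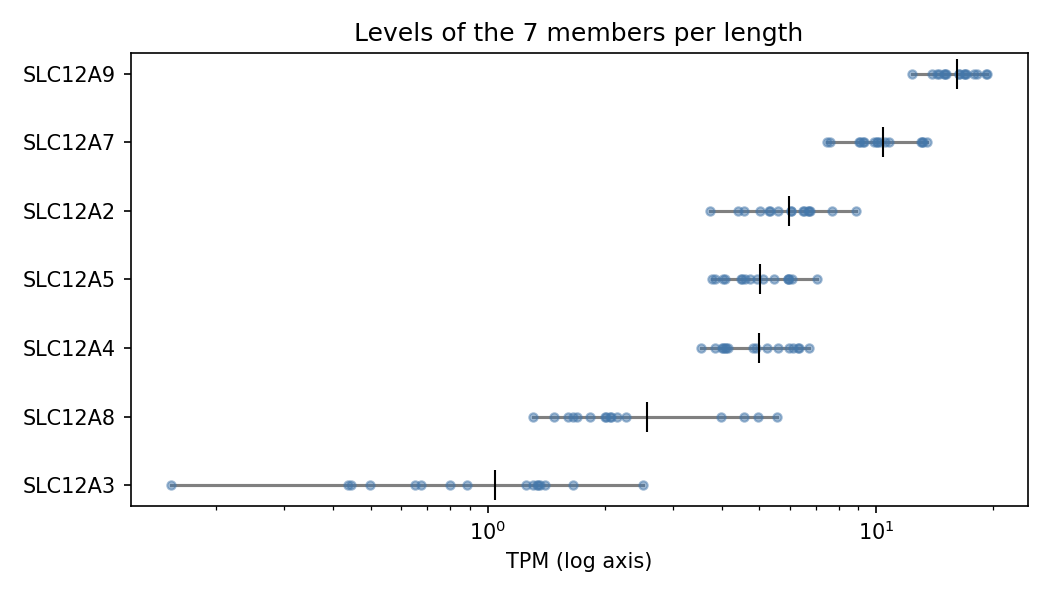
TPM on a log axis (horizontal) of each member (vertical axis), with 1 point for each of 16 libraries, a grey line for the range and a black tick for the mean. The range of SLC12A3, from 0.154 to 2.52 TPM, is the widest on this scale, and the 4 separate points of SLC12A8 at the right are the batch 2 libraries.

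Batch 2 differed from the other batches in most members, and in most genes. Batch 2 was compared with the mean of batches 1, 3 and 4 in the fit with group and batch. With 4 batches in all, this contrast speaks of these libraries. It called 53.9% of all genes tested and 5 of the 7 members, 3 higher and 2 lower. A count of 5 of 7 is near that background. The share of all genes with batch 2 outside the other batches in every group was not counted.

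SLC12A8 rose most in batch 2, by 1.13 ± 0.08 in log2 units (SE; edgeR adjusted p = 2.73e-08). Its 4 batch 2 libraries lay between 6.35 and 7.68 CPM and the other 12 between 2.59 and 4.16, so they did not overlap. SLC12A7 rose by 0.36 ± 0.05 (edgeR adjusted p = 2.89e-05), and batch 2 was above the other batches in 4 of 4 groups. SLC12A2 fell by 0.62 ± 0.06 in log2 units (edgeR adjusted p = 1.29e-06), at 17.1 to 20.1 CPM in batch 2, below the other batches in 4 of 4 groups.

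SLC12A3 rose in batch 2 by 0.78 ± 0.16 (SE; edgeR adjusted p = 0.000847), unevenly over the groups, and by 0.49 without the FL library of batch 2. The FL library of batch 2 was 2.66 times the mean of the other 3 FL libraries and the cIDR library 1.78 times that of its group. In WT and NCTAD the ratio was 1.17 and 1.10, but batch 2 lay below batches 3 and 4 in both, so a ratio above 1 rests on the low batch 1. WT held 1.17 CPM in batch 2 against 0.480, 1.23 and 1.30 in batches 1, 3 and 4. NCTAD held 4.16 CPM against 2.09, 4.81 and 4.45. In a model with a batch 2 term for each group, added after seeing the data, the batch 2 difference exceeded that of WT by 1.14 for FL and 0.55 for cIDR in log2 units, and for NCTAD the value was -0.11. Each batch 2 term rests on 1 library of its group, so the model cannot tell a difference between groups from the spread of single libraries. The SLC12A3 values also use the gap to WT on which the gene was chosen, and they are given with no test. Over all 19530 genes the model, with 6 residual degrees of freedom, called 0.0358% for such differences, and none of the other 6 members. SLC12A4 fell by 0.18 ± 0.07 in log2 units (edgeR adjusted p = 0.0357), a call lost in 8 of 22 alternatives. SLC12A9 at -0.19 ± 0.11 (edgeR adjusted p = 0.174) and SLC12A5 at 0.12 ± 0.14 (edgeR adjusted p = 0.496) were not called.

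**Figure D5:**
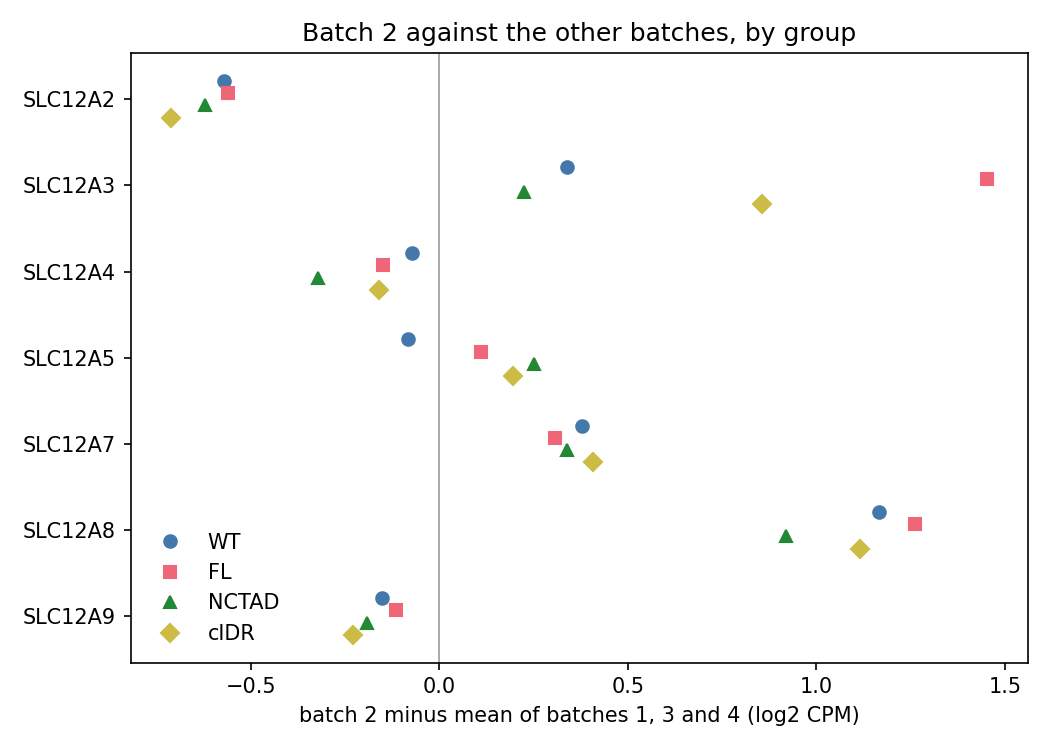
Log2 CPM in batch 2 minus the mean of batches 1, 3 and 4 (horizontal axis) for each member (vertical axis), with 1 point a group. SLC12A8 and SLC12A7 lie above 0 and SLC12A2 below 0 in all 4 groups with little scatter, while SLC12A3 spreads from 0.22 in NCTAD to 1.45 in FL.

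Hypoxia genes were higher in batch 2. The sum over 11 genes that respond to low oxygen was 834 to 1413 CPM in batch 2 and 306 to 588 CPM in the other batches, with 10 of 11 called higher. Over all genes this contrast called 53.9%, and 5414 of 19530 higher. PDK1, which restrains entry of pyruvate into mitochondria, rose by 2.81 ± 0.08 in log2 units (SE; edgeR adjusted p = 4.65e-12) and BNIP3, a mitophagy receptor, by 1.73 ± 0.06 (edgeR adjusted p = 1.23e-11). EPAS1 itself was at -0.45 ± 0.26 in the same contrast (edgeR adjusted p = 0.165). Its WT library was at 28.1 CPM in batch 2 against 13.0 to 17.3 in the others, while the NCTAD and cIDR libraries of batch 2 had the lowest EPAS1 of their groups. The blood, endothelial and epithelial markers summed to 2.49 to 4.02 CPM in batch 2 and to 0.777 to 2.14 in the others. The part of these in the values of SLC12A8, SLC12A7, SLC12A2 and SLC12A3 was not tested.

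Across the 16 libraries the variance of log2 CPM split differently among the members. These shares are a description and were not tested. For SLC12A3, 64.0% lay between groups and 29.9% between batches, and its group share holds the gap to WT on which the gene was chosen. For SLC12A8, SLC12A2, SLC12A7 and SLC12A4 batch took 94.1, 88.8, 77.8 and 71.5%, and group 2.89 to 9.67%. For SLC12A5 the group share was 50.9% and 42.7% remained, although it was called in no group comparison. For SLC12A9 77.0% lay in neither.

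Among the regulators of these transporters, 12 of 13 genes of the WNK-SPAK pathway were tested, and 0 were called in any of the 6 group comparisons by edgeR, with or without the block. At an unadjusted p under 0.05 the fit without the block gave 0 of 12 in each comparison, where 0.609% to 1.42% of all genes lay under it. With the block it gave 1 of 12 in NCTAD and in cIDR, each against WT and against FL, and 0 in the other two, where 2.15% to 5.96% of all genes did. WNK4, the WNK kinase best known for its action on NCC, never reached 10 counts. CAB39L, a partner that activates the kinases of STK39 and OXSR1, had the smallest p: with the block its log2 fold change was -0.27 ± 0.08 in NCTAD (SE; edgeR adjusted p = 0.275) and -0.26 ± 0.08 in cIDR (edgeR adjusted p = 0.320). The median log2 fold change over the 12 without the block was -0.0025 for FL, 0.02 for NCTAD and -0.02 for cIDR. In batch 2, 3 rose and 8 fell, in a contrast that called 53.9% of all genes. SGK1, a kinase that stimulates sodium transport, fell by 1.39 ± 0.06 in log2 units (edgeR adjusted p = 1.19e-10), CAB39L fell by 0.55 ± 0.06 and STK39 fell by 0.20 ± 0.05, while WNK2 rose by 0.52 ± 0.09 and KLHL3, an adaptor that marks WNK kinases for degradation, by 0.44 ± 0.10.

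The sodium pump makes the gradient that the importers use, and 6 of its 11 listed genes were tested. In the 6 group comparisons 0 were called in either fit, where 0 to 0.486% of all genes were. In batch 2, with its 53.9% of all genes called, 5 fell and 1 rose. ATP1B3, a beta subunit, fell by 0.48 ± 0.05 in log2 units (edgeR adjusted p = 1.62e-06). FXYD2, a modulator known from the kidney, rose by 1.08 ± 0.35 (edgeR adjusted p = 0.0166), with only 0 to 23 counts a library. Of 18 tested chloride channels and bicarbonate exchangers, 0 were called in the group comparisons in either fit. In batch 2, 4 rose and 8 fell, beside 53.9% of all genes called. SLC4A8, a sodium-driven exchanger, fell by 0.82 ± 0.07 in log2 units (edgeR adjusted p = 1.61e-07), and SLC4A3, an anion exchanger, rose by 0.65 ± 0.08 (edgeR adjusted p = 4.11e-06). SLC12A1, with 2 to 26 counts a library, was called in no group comparison in either fit and not in batch 2.

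Other lists had called genes against WT when batch was in the model. Of 11 hypoxia genes, 0 were called in FL, 5 in NCTAD and 7 in cIDR against WT with the block, where 0.102%, 0.456% and 0.486% of all genes were called, and 0 in all 3 without it. VEGFA, the main growth factor for vessels, rose by 1.05 ± 0.11 in NCTAD and by 0.89 ± 0.11 in cIDR (SE; edgeR adjusted p = 0.000350 and 0.00105). Of 9 neuroblastoma markers, TH and DBH, enzymes of catecholamine synthesis, were called higher in NCTAD and cIDR with the block, beside 0.456% and 0.486% of all genes. Without the block 0 of the 9 were called in either, beside 0.0256% and 0.0102% of all genes. The median of the 6 members other than SLC12A3 with the block was 0.03 in NCTAD and 0.06 in cIDR, against 0.43 and 0.51 for the hypoxia list.

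The genes whose pattern was most like that of SLC12A3 were taken by Pearson's r of log2 CPM over the 16 libraries after the mean of each batch was subtracted. They were DSE (r = 0.943), an epimerase of dermatan sulfate, SLC6A19 (0.932), an amino acid transporter of kidney and gut, SOX7 (0.929), a transcription factor, LINC02207 (0.924), a long non-coding RNA, and FGD5 (0.921), an exchange factor known from endothelial cells. In WT, SLC6A19 held 8 to 14 counts, LINC02207 1 to 5 and FGD5 0 to 17, so the 2 prior counts weigh on their log2 CPM there. All libraries are shared and the gap between WT and transfected cells sets much of each r, so these are descriptions. SLC6A19 was at 0.253 ± 0.0484 CPM in WT and at 1.17 ± 0.689 in FL, 1.13 ± 0.370 in NCTAD and 1.02 ± 0.236 in cIDR (SD, n = 4). DSE was at 8.25 ± 0.958 CPM in WT against 12.4 ± 2.27 with FL and 13.6 ± 1.44 with NCTAD. EPAS1 had r = 0.905 and rank 12 of 19529 genes. Among the members SLC12A8 came next to SLC12A3 with r = 0.841 and rank 70, though without centring on batch it was 0.367. SLC12A7 had 0.476, SLC12A4 0.370, SLC12A9 0.226, SLC12A2 -0.149 and SLC12A5 -0.474.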

How the data were processed

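Poly(A)-selected stranded RNA libraries took about 250 ng of RNA and 13 cycles of PCR, as the labels' protocols state. The authors deposited estimated counts per gene and TPM values, with no scaling to depth in the counts. The submitters' processing notes name fastp, STAR, Salmon, featureCounts and the GRCh38 build. Versions, roles and annotation release are not given in the sources used here. Of the count values of genes with any count, 26.7% were not whole, and all were rounded. All columns were matched to labelled libraries, which name groups otherwise than the columns do: groups follow the labels.

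Genes passing filterByExpr by group were fitted by quasi-likelihood in edgeR 4.0.16 (R 4.3.3; TMM, group only, 16 libraries), with Benjamini-Hochberg adjustment over all 19530 genes and a threshold of 0.05. Library sizes for CPM were scaled by TMM, and 2 prior counts were added for log2 CPM. The fit with the replicate block adds the labelled batch, which pairs the samples: deviations correlated at 0.308 on average (0.0674 to 0.712) within a batch and at -0.0945 between batches. The biological coefficient of variation was 0.245 without the block and 0.108 with it. Libraries held 38.6 to 56.1 M counts, so 3 counts correspond to at most 0.0812 CPM. The labels do not say whether libraries came from separate cultures, so p-values measure the spread between these libraries. DESeq2 1.42.0 and limma 3.58.1 on log2(TPM + 1) or log2(TPM + 0.1) were alternatives. Scripts were tested on simulated data. Members, gene lists and the rule for named genes (all members, EPAS1, called list genes or those with the smallest p, and the 5 genes most like SLC12A3) were chosen with earlier results of these data known. Positions and promoter sequences are from RefSeq GRCh38.p14, and transcript lengths and overlaps from GENCODE 29. The mean transcript length behind a gene was its count divided by its TPM, scaled by genes with 1 annotated transcript. Some genes of the lists are not reported here.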

Additional observations from a re-analysis of the deposited data

Results flagged for a closer look

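Within a group of 4 libraries, 4 of 28 group and gene pairs had a library far from the other 3, with a gap above the 95% critical value of Dixon's test. Chance marks about 5% of groups in this way where the libraries of a group are exchangeable. Here they are batches that all groups share: batch 1 was lowest for SLC12A3, and batch 2 highest for SLC12A8, in 4 of 4 groups. SLC12A3 in WT was lowest in batch 1, at 0.480 CPM. SLC12A4 in cIDR was highest in batch 4, at 12.2 CPM, but in FL it was highest in batch 3, at 11.3 CPM. SLC12A8 in WT was highest in batch 2, at 6.35 CPM. SLC12A9 in WT was highest in batch 4, at 40.1 CPM, but in FL it was lowest in batch 4, at 25.0 CPM.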

How the results depend on the processing

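The rise of SLC12A3 against WT kept its direction in all 34 alternatives for each construct. SLC12A3 was chosen for this rise in the same libraries, so the kept direction is a description and no support for it. On log2(TPM + 1) in limma the values were 0.77 (FL), 0.66 (NCTAD) and 0.48 (cIDR), with the same values with the replicate block; on log2(TPM + 0.1) it was 1.41 in NCTAD and 1.09 in cIDR. A pseudocount of 1 is close to the mean of 1.05 TPM and lowers such values by construction. Leaving out 1 library at a time gave 1.42 to 2.15 in FL, 1.65 to 2.10 in NCTAD and 1.25 to 1.69 in cIDR. The count of other members called against WT, and of members called between constructs, was 0 in all 34 alternatives, and in batch 2 it was 4 to 6 of 7 over 22. The rise of SLC12A3 in batch 2 stayed called, with values down to 0.31 on log2(TPM + 1). The difference of SLC12A3 between NCTAD and FL turned positive with the replicate block (0.070, or 0.031 without batch 1, 0.42 without batch 2 and 0.074 in DESeq2, but -0.070 without batch 3, -0.082 without batch 4 and -0.12 in limma on log2(TPM + 1)), without batch 2 in the fit without the block (0.46), and ran from -0.26 to 0.48 when 1 library was left out. Leaving out 1 library moved cIDR against FL between -0.66 and 0.088, and SLC12A8 against WT between -0.21 and 0.62 in FL, -0.081 and 0.61 in NCTAD, and -0.15 and 0.62 in cIDR, reversed without the batch 2 library of the construct. SLC12A5 in batch 2 was -0.11 and -0.13 on the TPM scales. SLC12A4 in batch 2 lost its call in 8 of 22 alternatives, with adjusted p up to 0.218, and SLC12A9 gained one without the FL library of batch 4 (adjusted p = 0.00783). SLC12A9 in FL against WT was -0.013 and -0.015 in limma on log2(TPM + 1) and log2(TPM + 0.1), with or without the block on the former, -0.057 without batch 1 and -0.036 without batch 3 (-0.069 and -0.047 with the block), and -0.034 to 0.20 when 1 library was left out. Over all 34 alternatives this value ran from -0.069 to 0.30, with its sign reversed in 9. Beyond the pseudocount of 1, the cause was not tested. Genes called over the whole table were 2, 5 and 2 in FL, NCTAD and cIDR against WT without the block and 20, 89 and 95 with it, and 11, 17 and 8 in DESeq2 without it. Counting error limits SLC12A3 in WT (23 to 63 counts), SLC12A5 (42 to 82), SLC12A1 (2 to 26) and FXYD2 (0 to 23). It also limits SLC6A19, LINC02207 and FGD5 in WT (8 to 14, 1 to 5 and 0 to 17 counts).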

Other observations

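Transcripts that neighbour members followed other patterns in batch 2. SLC12A2-DT, the divergent transcript named for SLC12A2, was at 14.6 to 16.6 CPM in batch 2 and its mean difference from the other batches was 0.04 ± 0.06 on the log2 scale (SD over 4 groups), while SLC12A2 itself was lower by 0.62 in the fit. SLC12A5-AS1 was above all other batches in 4 of 4 groups, by 0.58 ± 0.17 (SD over 4 groups), with 22 to 84 counts a library, whereas SLC12A5 was above them in 1 of 4 groups. SLC12A1, at 2 to 26 counts, was highest in cIDR in batches 3 and 4, at 0.540 and 0.587 CPM, but in batch 2 cIDR was the lowest of the 4 groups, at 0.176 CPM against 0.279 in WT. Its log2 fold change in cIDR against WT was 1.56 ± 0.63 (SE; edgeR unadjusted p = 0.0255, adjusted p = 1).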
